A study of Mus musculus with 4 samples.

Results

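The 4 genes Tcf7, Lef1, Tcf7l1 and Tcf7l2 encode the whole TCF/LEF family of the mouse, and their loci were described here through the chromatin immunoprecipitation and sequencing (ChIP-seq) peaks called around them in neonatal heart ventricle. Members were taken by position, as every interval of the 3 deposited peak lists that shares 1 bp or more with a window. Each window was made of the gene and about 50 kb on each side, in mouse build mm9. The choice of windows was made with earlier results of these data known. The windows hold 81 of 86315 intervals, namely 2 of 774 TCF7L2 peaks, 4 of 10530 GATA4 peaks and 75 of 75011 H3K27ac peaks. Chromatin came from cardiac ventricles of wild-type C57BL/6 mice at postnatal day 6 with no treatment, the ventricles of 10 hearts being pooled for each precipitation. The precipitated targets were TCF7L2, itself the product of one of the 4 genes, GATA4, a zinc-finger factor needed to form the heart, and acetylated lysine 27 of histone H3 (H3K27ac), which is laid down at promoters and enhancers in use. The series also has input chromatin from the same kind of tissue, which was not analysed here. The labels give 2 biological replicates per antibody but 1 list each, so replicate error is unknown throughout, and differences between windows are described without a test. Whole ventricle holds cardiomyocytes and other cell types, and a peak cannot be assigned to any of them. The lists hold no expression level, so the ventricle label was not checked against marker genes.

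TCF/LEF proteins are the DNA-binding end of the Wnt/beta-catenin pathway. Each has a high-mobility-group box that binds short sites with a CTTTG core. Without a Wnt signal they recruit Groucho/TLE corepressors, and when beta-catenin accumulates it binds their amino terminus and turns the same sites into activating ones. Family members differ in use: Tcf7l1 acts mostly as a repressor, Tcf7l2 can do both, and Tcf7 and Lef1, best known from lymphocytes, are themselves widely described as genes that Wnt signalling switches on.

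The promoter sequences of the 4 genes are shown because TCF7L2 was found near the start of only one of them. They are RefSeq sequences of build GRCm38.p6, from 250 bases before to 50 after an annotated start, written 5′ to 3′ along the gene. Their coordinates belong to that build and cannot be set beside the mm9 positions used everywhere else. RefSeq lists 9 such windows for the 4 genes: 2 for Tcf7, 4 for Lef1, 1 for Tcf7l1 and 2 for Tcf7l2. Both of Tcf7 and the most upstream one of each other gene are printed, with capitals marking CTTTG or its reverse complement CAAAG.

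Tcf7 start 1, GRCm38.p6 chr11:52282965-52283264 (-): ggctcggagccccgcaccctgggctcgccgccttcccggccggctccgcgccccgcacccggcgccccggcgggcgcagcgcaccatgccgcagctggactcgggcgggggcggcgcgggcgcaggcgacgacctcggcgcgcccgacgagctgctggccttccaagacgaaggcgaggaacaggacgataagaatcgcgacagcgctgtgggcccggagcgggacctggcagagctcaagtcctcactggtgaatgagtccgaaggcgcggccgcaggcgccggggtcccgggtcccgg
Tcf7 start 2, GRCm38.p6 chr11:52282546-52282845 (-): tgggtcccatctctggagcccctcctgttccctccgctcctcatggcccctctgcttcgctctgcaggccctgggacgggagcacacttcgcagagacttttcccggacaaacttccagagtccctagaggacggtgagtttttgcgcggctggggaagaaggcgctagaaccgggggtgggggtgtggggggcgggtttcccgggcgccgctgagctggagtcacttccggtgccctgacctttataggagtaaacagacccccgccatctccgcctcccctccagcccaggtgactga
Lef1, GRCm38.p6 chr3:131110047-131110346 (+): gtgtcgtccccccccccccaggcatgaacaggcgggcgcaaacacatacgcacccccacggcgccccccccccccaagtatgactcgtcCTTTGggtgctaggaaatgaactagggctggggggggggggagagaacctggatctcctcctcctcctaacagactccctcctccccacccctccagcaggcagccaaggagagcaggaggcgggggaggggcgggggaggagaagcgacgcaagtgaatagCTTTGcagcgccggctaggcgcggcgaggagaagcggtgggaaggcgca
Tcf7l1, GRCm38.p6 chr6:72788996-72789295 (-): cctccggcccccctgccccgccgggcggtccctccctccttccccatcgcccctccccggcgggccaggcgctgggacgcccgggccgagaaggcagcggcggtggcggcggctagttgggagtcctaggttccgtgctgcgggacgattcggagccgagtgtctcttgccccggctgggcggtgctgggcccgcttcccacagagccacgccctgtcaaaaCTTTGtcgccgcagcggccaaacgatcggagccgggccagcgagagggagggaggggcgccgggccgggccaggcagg
Tcf7l2, GRCm38.p6 chr19:55741560-55741859 (+): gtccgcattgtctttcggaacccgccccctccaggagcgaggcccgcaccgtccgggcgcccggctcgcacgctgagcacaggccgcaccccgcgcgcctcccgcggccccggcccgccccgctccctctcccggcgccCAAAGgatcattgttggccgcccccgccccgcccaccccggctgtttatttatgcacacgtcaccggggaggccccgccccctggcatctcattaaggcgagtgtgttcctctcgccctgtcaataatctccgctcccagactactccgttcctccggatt

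Neither Tcf7 window holds CTTTG on either strand, whereas all 7 windows of the other genes do. In the first Tcf7 window an atg lies before the annotated start, and its reading frame runs without a stop codon to the window's end. That window may thus be largely coding sequence, so the contrast cannot be read as one between promoters. The Lef1 windows 131110047-131110346 and 131110073-131110372 overlap, and their matches are the same sites. Over all 32851 promoter windows of the table, 53.9% hold it, so its presence is common. In the Lef1 window printed, the motif begins at bases 90 and 252. It begins at base 223 in Tcf7l1 and, as CAAAG, at base 140 in Tcf7l2, counting from 1 at the 5′ end. The longer forms CTTTGAA and CTTTGAT, held by 5.14% and 3.73% of all windows, were in 0 of the 9; both contain the CTTTG core. The GATA form AGATAA, held by 11.2% of all windows on either strand, was in 2 of the 9, the most downstream start of Lef1 and that of Tcf7l2. All 5 printed windows are rich in G and C, from 64.3% in the second Tcf7 window to 76.3% in the first, against a median of 52.7% over the table. The windows not printed differ. Lef1 start 2 has 67.3%, but Lef1 starts 3 and 4 have 51.7% and 43.7%, and Tcf7l2 start 2 has 42.0%, all below that median. A match is a run of letters and not a bound site, and no match says only that these letters are not in the 300 bases shown.

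The loci differed in acetylation. Tcf7l1 had the largest share of bases inside H3K27ac peaks. Its window of 264 kb on chromosome 6 (72526000 to 72790000) held 32 H3K27ac peaks that covered 146 kb, or 55.3%. Tcf7l2, with a window of 294 kb on chromosome 19 (55766000 to 56060000), held 30 H3K27ac peaks over 117 kb, or 39.9%. The Tcf7 window of 132 kb on chromosome 11 (52015000 to 52147000) held 9 over 27.7 kb, or 20.9%. Lef1 had the lowest value, 4 H3K27ac peaks over 31.4 kb or 14.5% of its 217 kb on chromosome 3 (130763000 to 130980000). Chromosomes themselves differ in acetylation, with 9.1% of chromosome 6, 13.4% of chromosome 19, 17.0% of chromosome 11 and 7.28% of chromosome 3 covered. Relative to its own chromosome the coverage was 6.08 times as high for Tcf7l1, 2.98 times for Tcf7l2, 1.99 times for Lef1 and 1.23 times for Tcf7. These whole-window values weigh the flanks unequally. Less 50 kb on each side, 32.0 kb remained of the Tcf7 window and 194.0 kb of the Tcf7l2 window.

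**Figure D1:**
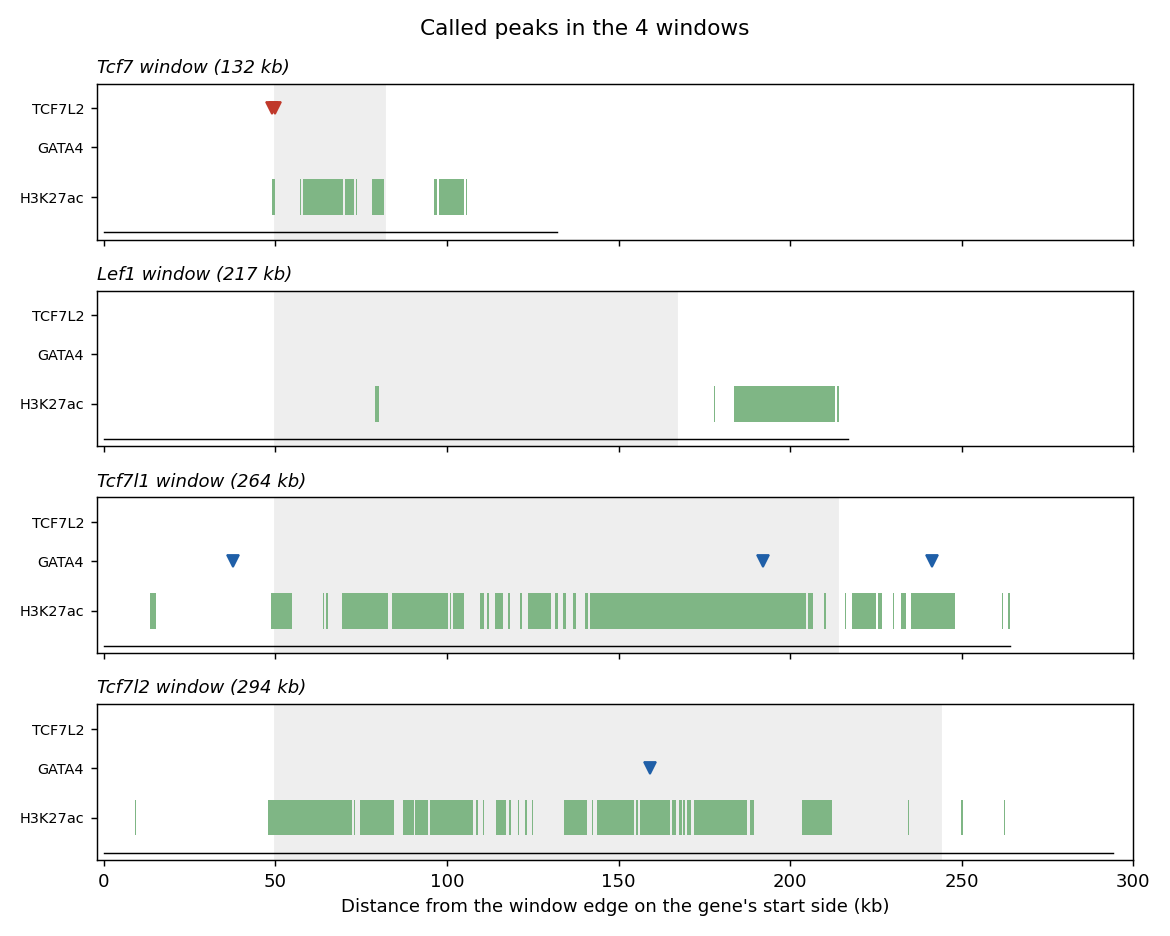
Called peaks along the 4 windows. The x axis is the distance in kb from the window edge on the side of the gene's start; green blocks are H3K27ac peaks, blue triangles GATA4 peaks and red triangles TCF7L2 peaks, and grey marks the window less 50 kb on each side. Green blocks fill much of the grey area in Tcf7, Tcf7l1 and Tcf7l2 and almost none of it in Lef1, and both red triangles stand at one edge of the grey area of Tcf7.

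The place of the acetylation within the window separated Lef1 from the others. With 50 kb taken off each side, what remains is the gene as the window rule places it. This middle was acetylated over 72.4% in Tcf7l1, 58.8% in Tcf7l2 and 57.0% in Tcf7, but over 0.943% in Lef1. The Lef1 value is a single H3K27ac peak of 1103 bp (130841959 to 130843061), 79.0 to 80.1 kb from the edge on the start side. In Lef1, 96.5% of the acetylated bases lay in the outer 50 kb on the end side, which was covered over 60.5%. Most of that was 1 peak of 29.5 kb (130946702 to 130976224), a width reached by 1.11% of H3K27ac peaks in the list, and it made up 94.1% of the acetylation of the window. The next protein-coding gene on that side in the GRCm38.p6 order is Hadh, which encodes a mitochondrial enzyme of fatty acid oxidation; whether this peak covers it was not determined, since no mm9 gene table was used. The neighbour on the start side is Rpl34, a ribosomal protein gene, and the outer 50 kb there held 0 H3K27ac peaks. A run of 97.9 kb without any H3K27ac peak (130843062 to 130940948) was the longest in the 4 windows.

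The other loci had the reverse arrangement. In Tcf7l2, 97.2% of the acetylated bases were in the middle, and the flanks were covered over 5.27% on the start side and 1.3% on the end side. Tcf7l2 lies between Vti1a, which encodes a vesicle fusion protein, and Habp2, a secreted protease gene. In Tcf7, 65.9% of the acetylated bases were in the middle and 31.0% in the flank on the end side, towards Skp1, which encodes a subunit of SCF ubiquitin ligases. Its flank on the start side, towards the mitochondrial channel gene Vdac1, was covered over 1.69%. In Tcf7l1 the middle had 81.4%. The flank on the end side, towards the Golgi protein gene Tgoln1, was also acetylated, over 47.9%, against 6.52% on the start side towards the ubiquitin ligase gene Kcmf1. The start-side flank was the most covered part in no window, and the end-side flank only in Lef1.

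**Figure D2:**
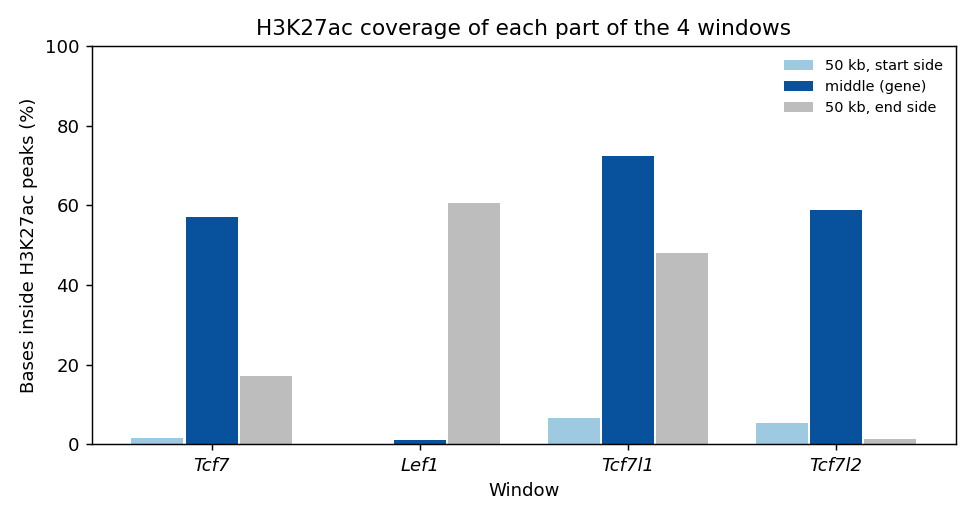
H3K27ac coverage, as a percentage of bases, of the 50 kb on the start side, the middle and the 50 kb on the end side of each window; each bar is 1 value from 1 peak list. The middle bars of Tcf7, Tcf7l1 and Tcf7l2 reach 57.0% to 72.4%, and the Lef1 middle bar is at 0.943%.

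Acetylation at the starts of the genes differed in the same way. The rule puts each start about 50 kb from the window edge, a rounded position, so only peaks close to that mark can be named. For Tcf7l2 the widest H3K27ac peak of its window, 24.6 kb (55813827 to 55838454), ran from 47.8 to 72.5 kb from the start-side edge, across the mark. For Tcf7l1 a peak of 6169 bp (72735223 to 72741391) spanned the mark. For Tcf7 an H3K27ac peak of 845 bp (52097165 to 52098009) lay just outside the mark. For Lef1 there was none: the first H3K27ac peak from the start side began 79.0 kb from the edge.

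Of the 4 windows, TCF7L2 was called only in that of Tcf7. There were 2 TCF7L2 peaks there (exact Poisson interval 0.242 to 7.22, counting error only) and 0 in the windows of Lef1, Tcf7l1 and Tcf7l2 (upper bound 3.69 each). The interval treats peaks as independent, though these 2 lay only 518 bp apart. Such peaks are rare everywhere: 6.23% of 899 windows of chromosome 11 as long as the Tcf7 window held 1 or more, and 0.779%, or 7 windows, held 2 or more; 1 of the 7 shares bases with the Tcf7 window. Among windows as long as those of the other genes, 3.49% on chromosome 3, 7.05% on chromosome 6 and 9.6% on chromosome 19 held a TCF7L2 peak, so 0 was the usual count. Away from the windows the nearest TCF7L2 peak was 594 kb beyond the Tcf7 window, 3433 kb beyond that of Tcf7l2, 6547 kb beyond that of Lef1 and 7006 kb beyond that of Tcf7l1. The gene for TCF7L2 itself thus had no TCF7L2 peak nearby. The lists carry no height and the depth is unknown, so weaker binding below the calling threshold would not be seen.

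Both TCF7L2 peaks of Tcf7 stood at its start side. One, of 352 bp, lay on chromosome 11 from 52096996 to 52097347, with its centre 49.8 kb from the start-side edge. The other, of 497 bp, lay from 52097866 to 52098362, its centre 48.9 kb from that edge and so farther upstream. They were wide for this factor, whose median was 198.5 bp: 38 of 774 peaks were at least as wide as the upstream one and 104 as the other. A gap of 518 bp separated them. In the whole list 21 of 754 neighbouring pairs, 2.79%, were within 1 kb of each other.

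A single narrow H3K27ac peak bridged the pair. The peak of 845 bp filled all 518 bp between them, shared 183 bp with the gene-side TCF7L2 peak and 144 bp with the upstream one, and left 169 and 353 bp of them outside. Elsewhere TCF7L2 usually sat wholly inside acetylation: of 645 acetylated TCF7L2 peaks only 33, or 5.12%, reached past a border, and these are 2 of the 33. Over all 616 H3K27ac peaks that held TCF7L2 the median width was 6878 bp, and 18, or 2.92%, were 845 bp or narrower. Of the 616, 26 held 2 or more, with a median width of 17248 bp. The Tcf7 one was the narrowest of those 26. It also stood alone on its upstream side, where the next H3K27ac peak was 52.1 kb away, against 7.34 kb towards the gene body. The nearest GATA4 peaks were 63.0 and 62.1 kb from the TCF7L2 peaks.

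**Figure D3:**
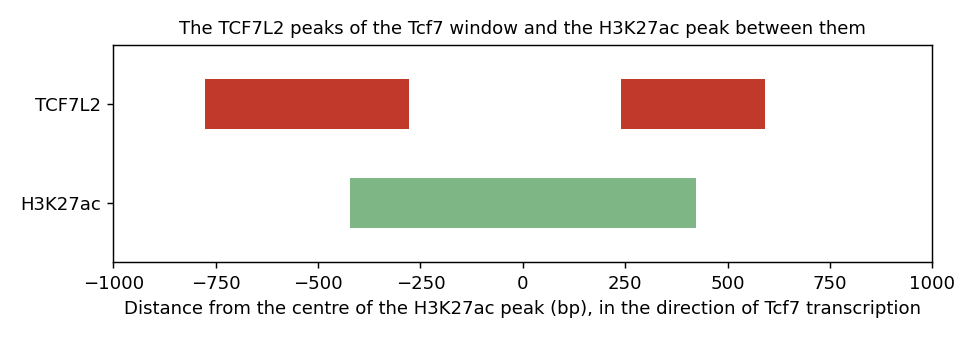
The TCF7L2 peaks of the Tcf7 window (red) and the H3K27ac peak between them (green), drawn to scale. The x axis is the distance in bp from the centre of the H3K27ac peak along the direction of Tcf7 transcription; each red bar lies partly past one end of the green bar of 845 bp.

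GATA4 was found at Tcf7l1 and Tcf7l2 and not at Tcf7 or Lef1. Tcf7l1 had 3 GATA4 peaks, or 1.14 per 100 kb (exact Poisson interval 0.234 to 3.32), and Tcf7l2 had 1, or 0.34 per 100 kb (0.00861 to 1.9). The 0 of Tcf7 and of Lef1 allow up to 2.79 and 1.7 per 100 kb, so these intervals overlap and the counts do not separate the 4 loci. Of same-length windows, 45.3% on chromosome 11, 39.4% on chromosome 3, 47.4% on chromosome 6 and 56.6% on chromosome 19 held 1 or more GATA4 peaks, and 11.4% on chromosome 6 held 3 or more. A GATA4 peak was called 13.1 kb past the start-side edge of the Tcf7 window (52160105 to 52160229). Around Lef1 the nearest was 330 kb beyond the window.

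The GATA4 peaks of Tcf7l1 were of different kinds. The widest, 256 bp (72597639 to 72597894), lay in the middle of the window inside the H3K27ac peak of 62.9 kb, 12.4 kb from its low-coordinate border. A peak of 125 bp (72548434 to 72548558), among the narrowest of its list (10514 of 10530 were at least as wide), lay in the flank on the end side inside an H3K27ac peak of 12.9 kb. The third, of 197 bp (72752134 to 72752330), was in the flank on the start side outside acetylation, 10.7 kb from the nearest H3K27ac peak. In Tcf7l2 the only GATA4 peak, of 220 bp (55924961 to 55925180), lay in the middle inside an H3K27ac peak of 8.76 kb. In all, 3 of the 4 GATA4 peaks overlapped H3K27ac, 75.0% (95% Wilson interval 30.1 to 95.4), beside 79.4% (78.6 to 80.1) over the GATA4 list. None was near TCF7L2: the nearest TCF7L2 peak was at least 3568 kb away.

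Tcf7l2 had fewer GATA4 peaks than the windows of its chromosome with about the same acetylation. On chromosome 19, 11 other same-length windows were acetylated over 31.9% to 47.9%, and they held 2 to 10 GATA4 peaks with a median of 5, against 1 at Tcf7l2. The exact Poisson interval of that count, 0.0253 to 5.57, contains this median. At Tcf7l1 the count of 3 equalled the median of the 15 other windows of chromosome 6 acetylated over 44.2% to 66.3%, which held 1 to 8. Tcf7 and Lef1 shared their count of 0 with 25 of 68 windows of chromosome 11 acetylated over 16.8% to 25.1% and with 6 of 40 of chromosome 3 acetylated over 11.6% to 17.3%. This comparison was chosen after the values were seen and has no test.

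In all 4 windows most of the acetylation lay in peaks of 5 kb or more, though most peaks were narrower. Median H3K27ac widths were 928 bp in Tcf7, 778 bp in Lef1, 888.5 bp in Tcf7l1 and 667.5 bp in Tcf7l2, all below the median of 1287 bp of the list. Yet peaks of 5 kb or more, 8 of 32 in Tcf7l1 and 8 of 30 in Tcf7l2, held 126 of 146 kb and 97.8 of 117 kb of their acetylation. In Tcf7 2 of 9 peaks were that wide, with 18.9 of 27.7 kb, and in Lef1 1 of 4, with 29.5 of 31.4 kb. Over the whole list 13.3% of H3K27ac peaks were at least 6169 bp wide, the width of the narrowest of the 8 in Tcf7l1. The share of all acetylated bases held by peaks of 5 kb or more was not computed, so the pattern cannot be called particular to the 4 windows. The widest of Tcf7l1, 62.9 kb (72585350 to 72648247), lay in the end-side part of the middle, and only 136 of 75011 H3K27ac peaks, itself included, were as wide. Next in this window were peaks of 16.4 kb (72689767 to 72706156) and of 15.2 kb (72511151 to 72526362), the latter crossing the edge of the window. The next widest of Tcf7l2 measured 15.5 kb (55937888 to 55953432) and 12.5 kb (55861122 to 55873607). Tcf7 had as its widest peaks 11.5 kb (52077411 to 52088952) and 3.33 kb (52065399 to 52068732) in the gene and 7.37 kb (52042037 to 52049408) in the flank on the end side. In Lef1 the peak of 29.5 kb was followed by those of 1103 bp and 453 bp (130976776 to 130977228).

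**Figure D4:**
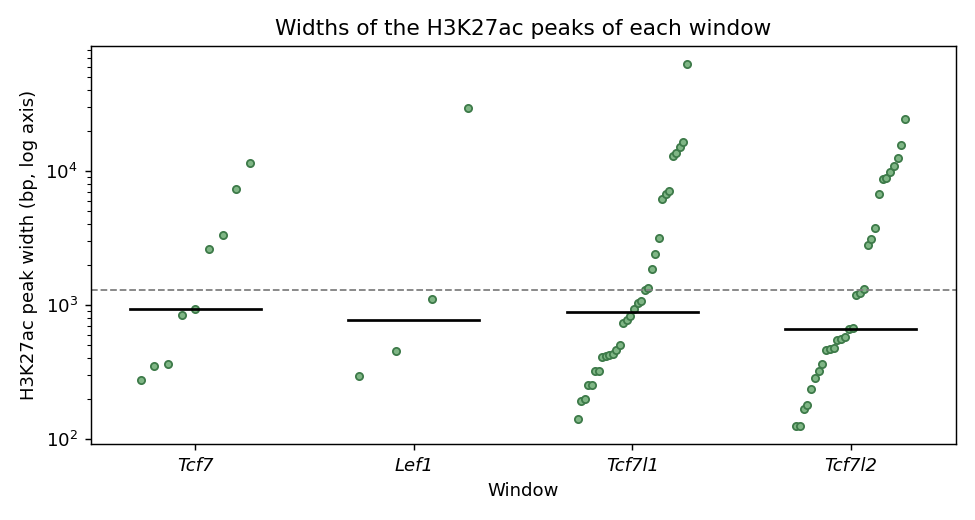
Widths in bp, on a log axis, of the H3K27ac peaks of each window, sorted from narrow to wide; black lines are medians and the dashed line is the median of the whole list, 1287 bp. The medians, 667.5 to 928 bp, lie below the dashed line, while the widest peaks reach 11.5 kb in Tcf7, 29.5 kb in Lef1, 62.9 kb in Tcf7l1 and 24.6 kb in Tcf7l2.

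Joined across gaps of up to 12.5 kb, the acetylated peaks of the loci fell into stretches of very different length. Tcf7l1 belonged to the second longest of 20708 stretches, one of 612.3 kb made of 69 H3K27ac peaks. This stretch was inside H3K27ac peaks over 71.9% of its length. It entered the window from the end side and took up 215 kb, or 81.6%, of it, ending at 72741391 beside the mark for the gene's start. With 11 GATA4 peaks over its whole length it held 0 TCF7L2 peaks. The main stretch of Tcf7l2 was 141.8 kb (55813827 to 55955627, 25 peaks), rank 459, and lay wholly in the window. It began at the mark for the start. Tcf7 had a stretch of 32.6 kb (52065399 to 52098009, 6 peaks) that ran the length of the middle and ended with the peak between the TCF7L2 peaks. The stretch in the Lef1 flank was 47.8 kb long, beginning at 130940949 and running past the edge of the window. Over all stretches the median was 5.05 kb. Only the gap of 12.5 kb was used, so how far the lengths and ranks depend on it is unknown.

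Set among same-length windows of its chromosome, Tcf7l1 was near the top in the share of bases acetylated. Only 7 of 553 windows of chromosome 6, 1.27%, were acetylated over as large a share, and 1 of the 7 shares bases with the Tcf7l1 window itself. Another of the 7 (72120882 to 72384882, 67.5%) lies mostly in the same stretch of 612.3 kb that enters the Tcf7l1 window. The median was 2.03%. For Tcf7l2, 22 of 198 windows of chromosome 19, 11.1%, were as high (median 4.47%). For Lef1, 20.1% of 716 windows of chromosome 3 were as high (median 0.715%), a rank that comes from the flank and not from the gene. For Tcf7, 34.0% of 899 windows of chromosome 11 were as high (median 7.06%), so its window was not unusual there.

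**Figure D5:**
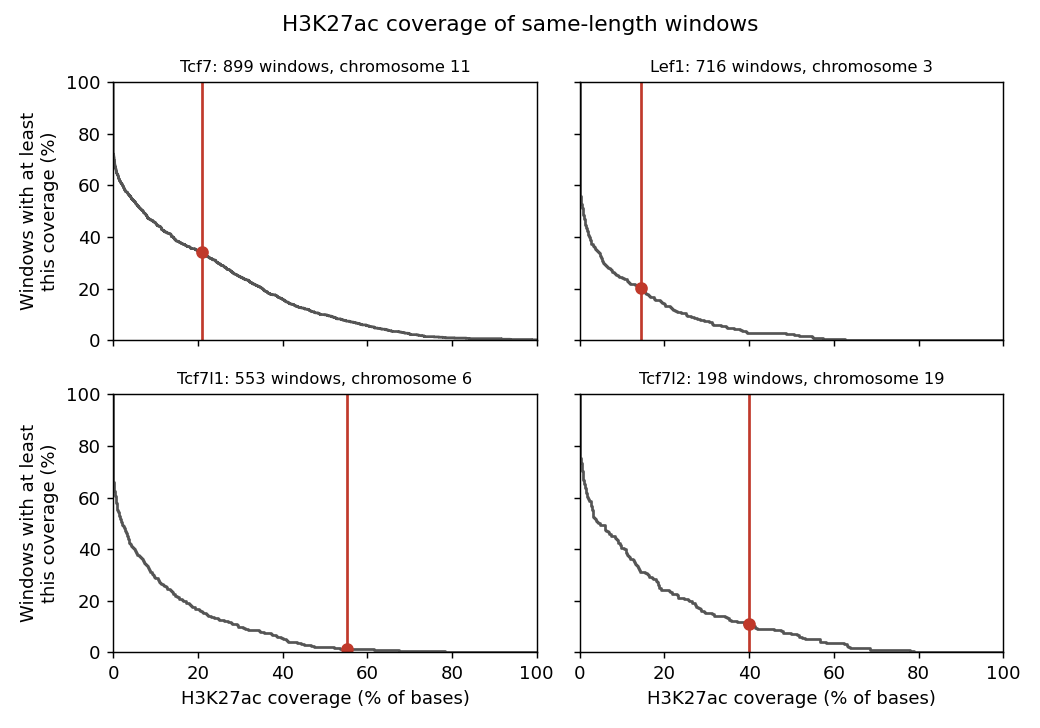
For each gene, the share of same-length windows of its chromosome (y axis, %) with at least the H3K27ac coverage on the x axis (% of bases); the red line and point mark the gene's own window. The point lies at 1.27% for Tcf7l1, 11.1% for Tcf7l2, 20.1% for Lef1 and 34.0% for Tcf7.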

How the data were processed

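ChIP-seq peaks of TCF7L2, GATA4 and H3K27ac were available as 1 list per antibody. The values deposited by the authors are other than a measured signal: start and end positions in bp, with no height, score or count. Per the submitters' processing notes, the genome build was mm9 and the tools named, without their roles, are Bowtie2 (2.2.6.2), FastQC (0.10.0), deepTools and MACS2 (2.1.1.20160309.0). The sources used here do not give the peak threshold or how 2 replicates became 1 list. Since only called intervals are known, depth is unknown, and a missing peak means below threshold in these lists.

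Windows, members and comparisons were chosen with earlier results of these data known. All factor peaks and the 3 widest H3K27ac peaks of each window are named, and so are peaks at the start marks, chosen after their values were seen. Coverage is the share of bases inside H3K27ac peaks. Same-length windows were laid end to end from the first to the last position listed on the chromosome. Positions are 1-based in mm9. No genome or gene table of mm9 was used, so exons, introns, peak sequences and the planned pathway genes were not analysed here. Gene order, strands and the sequences of all 4 genes come from RefSeq, GRCm38.p6. Intervals cover counting error over peaks only and treat peaks as independent. No p-value was computed. Counting was tested on simulated data, where 20 of 20 sets equalled a base-by-base count. Python 3.11.15, numpy 2.4.6, pandas 2.3.3 and scipy 1.17.1 were used.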

Additional observations from a re-analysis of the deposited data

How the results depend on the processing

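Of 58 alternative values for 21 results, 50 planned and 8 chosen after seeing the data, 50 stayed close to the reported value, within 1.5 times for counts and coverage and within the 95% interval for shares. Many of these 50 could not have moved. Counts of 0 stay at 0 because the alternatives only remove peaks. The share of windows with as many GATA4 peaks as Tcf7 or Lef1, at 0, is 100% by definition. Without the outer 50 kb on each side, the Tcf7 window held 1 TCF7L2 peak, because the border runs through the gene-side peak and leaves the upstream one outside, and Tcf7l1 held 1 GATA4 peak; H3K27ac coverage became 57.0% for Tcf7 and 0.943% for Lef1. Among same-length windows with H3K27ac only, which are fewer by construction, 47.1% were as acetylated as Tcf7 and 34.4% as Lef1, and 17.2% and 67.5% held as many GATA4 peaks as Tcf7l1 and Tcf7l2. No paired analysis was possible because each antibody has 1 list. Leaving out a replicate could not be done for the same reason. The lists hold no score, so a stricter threshold could only be imitated by width, and depth sets an unknown limit on what was called.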
